A study of Rattus norvegicus with 15 samples.

Results

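Trem2, Tyrobp and 6 further genes of the activating and inhibitory tyrosine-motif signalling of microglia were followed in rats that drank ethanol or water, in the ventral tegmental area, the midbrain region of dopamine neurons. The 8 genes were Trem2, Cd33, Tyrobp, Fcer1g, Syk, Plcg2, Inpp5d and Ptpn6, and every probe set that the array annotation names with exactly 1 of these symbols was taken. These are 8 of the 14217 genes that the array names, and they gave 9 probe sets of 31042 that were not controls, 2 of them for Trem2 and 1 for each other gene. The samples were 7 rats given ethanol and 8 age-matched rats given water, with 1 array for each rat. The series title names loss-of-control drinking and alcohol-preferring (P) rats, a line bred for high voluntary alcohol intake, and the design text compares lines selected for high and for low consumption, but the labels separate only ethanol from water. Ethanol animal number 3 was not analysed here. Age, sex and the interval from the last drink to tissue collection were not given in the sources used here. The genes were grouped with the difference between ethanol and water rats already known, so that difference is given for them as a description, and the calls they received add no support.

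Microglia, the resident macrophages of the brain, carry receptors whose own tails signal little and which work through small adaptors. Trem2 binds lipids, lipoproteins and cell debris and pairs with the adaptor Tyrobp (DAP12), whose immunoreceptor tyrosine-based activation motif (ITAM) is phosphorylated by Src kinases and then recruits the kinase Syk. Syk in turn acts on the phospholipase Plcg2. The receptor Cd33 binds sialic acid and carries inhibitory motifs (ITIMs) that recruit phosphatases such as Ptpn6 (SHP-1), while Inpp5d (SHIP1) removes a phosphate from the lipid that PI3-kinase makes.

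Of the 15 arrays, those of water rats 7 and 8 stood apart, with scores of 21.4 and 21.0 on the first principal component of the fitted probe sets against at most 12.5 on the others, so results that rest on them are also given without both (chosen after seeing the data). The tissue expressed the marker of the region. Th, the rate-limiting enzyme of dopamine synthesis, lay between 14.72 and 15.26 log2 units in ethanol rats and between 14.44 and 15.10 in water rats. Values are RMA log2 values, on which 1 unit is a doubling, and a level of 1 probe set is not comparable with that of another. A probe set counted as called when its adjusted p in the limma fit of ethanol against water, adjusted over 18625 probe sets, was below 0.05. Over the array 173 probe sets were called, or 0.929%, of which 72 were higher in ethanol rats (0.387%) and 101 lower (0.542%), and 12.1% had an unadjusted p below 0.05. The fit took probe sets with a mean at or above the 40th percentile (6.94 log2 units), and 7 of the 9 probe sets, standing for 6 of the 8 genes, reached it. Syk (mean 6.81) lay just under that level and Ptpn6 (7.15) just above it, and Plcg2 (5.94) was well below.

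Trem2, Cd33, Tyrobp and Fcer1g rose in ethanol rats, by 1.25-fold to 1.43-fold, whereas Inpp5d and Ptpn6 did not pass the threshold. Of the 7 probe sets fitted, 5 were called, all higher, beside 0.387% of all fitted probe sets, and in 3 of the 7 the groups did not overlap, beside 0.623% of all fitted probe sets (0.247% counting only those higher in ethanol rats). Since the genes were picked by this very difference, nothing is read from those counts. Without water rats 7 and 8, 4 of these 5 calls remained, and the first Trem2 probe set, at log2 0.32 (SE 0.07), had an adjusted p of 0.0503 by limma. The other differences were then 0.46 for the second Trem2 probe set, 0.33 for Cd33, 0.35 for Tyrobp and 0.33 for Fcer1g.

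The receptor Trem2 was represented by 2 probe sets. With the first, probe set 1382513_at, its log2 value was 8.16 in the lowest ethanol rat, 8.24 at the median and 8.53 in the highest, against 7.72, 7.99 and 8.11 in water rats. Every ethanol rat lay above every water rat, and ethanol rat 8 stood apart at the top of its group. The means were 8.26 ± 0.12 (SD, n = 7) and 7.95 ± 0.13 (SD, n = 8), a 1.25-fold difference (log2 0.32, SE 0.06). The second, probe set 1392759_at, read 7.47, 7.76 and 7.99 in ethanol rats and 6.93, 7.22 and 7.44 in water rats. Here too the groups did not overlap, although the lowest ethanol rat lay only just above the highest water rat. This probe set gave the larger difference of the pair, 1.43-fold (log2 0.52, SE 0.08).

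Cd33, the sialic acid receptor with inhibitory motifs, was at 7.95, 8.16 and 8.46 (lowest, median and highest) in ethanol rats and at 7.57, 7.81 and 8.004 in water rats. The groups overlapped at a single point, 1 water rat lying within the ethanol range. Its means were 8.17 ± 0.16 (SD, n = 7) and 7.80 ± 0.12 (SD, n = 8), a 1.29-fold difference (log2 0.37, SE 0.07). Trem2 and Cd33 thus differed in the same direction. The motifs of the rat proteins were not examined here.

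The sequence upstream of the starts of both receptors is shown, 250 bases ending at the annotated start, from RefSeq (GRCr8). The letters GAGGAA, the core bound by the macrophage factor PU.1, are in capitals on either strand. PU.1 itself was not measured, and its part in the differences of both receptor genes was not tested. Both genes lie on the minus strand, Trem2 at chr9:20151780-20152029 and Cd33, at the outer of its 2 annotated starts, at chr1:103086688-103086937.
Trem2: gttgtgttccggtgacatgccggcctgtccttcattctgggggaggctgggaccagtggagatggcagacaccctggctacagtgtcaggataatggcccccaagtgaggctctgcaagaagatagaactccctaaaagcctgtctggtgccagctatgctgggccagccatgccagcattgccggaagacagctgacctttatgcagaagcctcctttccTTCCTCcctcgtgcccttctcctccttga
Cd33: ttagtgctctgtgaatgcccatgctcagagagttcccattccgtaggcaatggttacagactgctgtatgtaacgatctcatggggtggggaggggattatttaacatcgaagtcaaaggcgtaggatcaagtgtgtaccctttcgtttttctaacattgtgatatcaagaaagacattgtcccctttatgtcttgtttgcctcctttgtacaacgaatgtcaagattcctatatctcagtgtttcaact
The Trem2 window held the letters once, on the opposite strand, read there as TTCCTC and beginning 29 bases before the start. Neither Cd33 window held them. Of the other genes, Syk and Plcg2 each had 1 match in this window, and Inpp5d and Ptpn6 had 0. Of 33469 promoters of the same length, 23.3% held a match on one strand or the other. Promoters of Tyrobp and Fcer1g were not analysed here. In the RefSeq gene order Trem2 lies beside its relative Treml1, and Tyrobp beside Hcst (DAP10), an adaptor that signals through PI3-kinase and whose probe set here was under the filter.

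Both ITAM adaptors rose by a similar amount. Tyrobp, the partner of Trem2, was at 9.29, 9.43 and 9.60 in ethanol rats and at 8.83, 9.08 and 9.33 in water rats. Water rat 5, the highest of its group, lay within the ethanol range, and the other 7 water rats lay below every ethanol rat. Tyrobp was 1.33-fold higher in ethanol rats (log2 0.41, SE 0.07). Fcer1g, the common gamma chain through which Fc receptors signal, was at 10.88 in the lowest and 11.14 in the highest ethanol rat and between 10.38 and 10.80 in water rats. No water rat reached the ethanol range, and water rats 7 and 8 were the lowest. The means were 11.02 ± 0.09 (SD, n = 7) and 10.62 ± 0.14 (SD, n = 8), a 1.32-fold difference (log2 0.40, SE 0.06).

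The enzymes downstream of the adaptors gave dim signals. Syk, the kinase that docks on phosphorylated ITAMs, read 6.76, 6.91 and 7.20 in ethanol rats and 6.47, 6.77 and 6.87 in water rats. Of the 8 water rats, 4 lay at or above the lowest ethanol rat. The means differed by 0.20 log2 units, and with no filter on dim probe sets Syk was not called. Plcg2, the phospholipase that releases the calcium and diacylglycerol signals, read 5.41, 5.96 and 6.21 in ethanol rats and 5.51, 5.99 and 6.37 in water rats. The groups covered nearly the same range and their means differed by 0.025 log2 units.

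The 2 inhibitory phosphatases overlapped between the groups. Inpp5d read 7.07, 7.22 and 7.53 in ethanol rats and 6.80, 7.19 and 7.58 in water rats, so the ethanol rats lay inside the water range. Its difference was 0.029 log2 units (95% interval -0.18 to 0.23). Without water rats 7 and 8 the difference was -0.056. Ptpn6 read 7.02, 7.14 and 7.46 in ethanol rats and 6.74, 7.17 and 7.35 in water rats, with the medians in reverse order to the means. Its difference was 0.09 log2 units (95% interval -0.10 to 0.28).

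**Figure D1:**
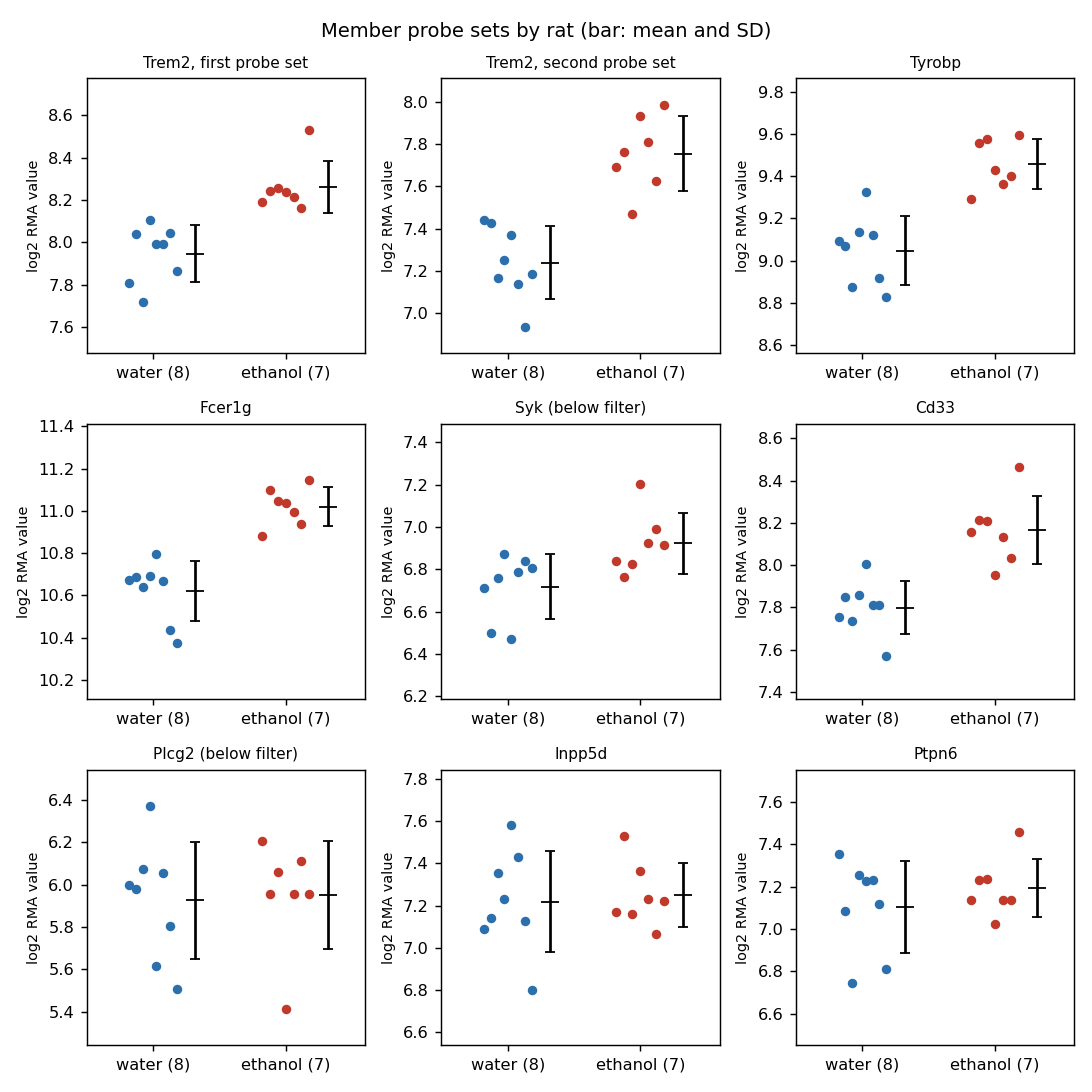
Log2 RMA value of each of the 9 probe sets in every rat (points), water rats on the left and ethanol rats on the right of each panel, with the group mean and SD beside them; all panels span the same number of log2 units. The groups do not overlap for both Trem2 probe sets and Fcer1g, touch through 1 water rat for Tyrobp and Cd33, and overlap widely for Plcg2, Inpp5d and Ptpn6.

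The microglial markers, taken as a list, were higher in ethanol rats. All 17 measured microglial identity markers of a list of 24, which excludes the 8 genes, had positive differences, with a median of 0.27 log2 units beside 0.0062 over all fitted probe sets, and 6 of the 17 rose (limma, adjusted p below 0.05), beside 0.387% of the array. They were the receptor Gpr34 (log2 0.89, SE 0.11, adjusted p = 4.46e-04), the lysosomal protein Laptm5 (0.30), the tetraspanin Cd53 (0.35), the protease Ctss (0.36), the myeloid transcription factor Irf8 (0.37) and the leukocyte phosphatase Ptprc (0.38). Only the call of Gpr34 outlasted every omission of 1 array; the other calls ended under 10 to 13 of the 15 omissions (adjusted p up to 0.105). Of the markers not called, P2ry12 was at 0.27 (SE 0.09, limma adjusted p = 0.204) and Cx3cr1 at 0.19 (SE 0.06, adjusted p = 0.146). Tmem119 was at 0.059 (SE 0.07, adjusted p = 0.765) and Itgam at 0.056 (SE 0.08, adjusted p = 0.825). The mean of the 17 markers lay between 9.27 and 9.55 in ethanol rats and between 8.92 and 9.33 in water rats. Of the 7 ethanol rats, 5 lay above every water rat. Water rats 7 and 8 had the lowest means, 8.92 and 8.94, and the next was at 9.10. Without both, Gpr34 stayed called (log2 0.83, SE 0.11, adjusted p = 0.00232), while Ctss (0.27, adjusted p = 0.0691), Ptprc (0.28, adjusted p = 0.0793), Laptm5 (0.27, adjusted p = 0.0814), Cd53 (0.32, adjusted p = 0.116) and Irf8 (0.34, adjusted p = 0.117) did not pass. In tissue RNA, more cells of a type and more RNA per cell cannot be told apart.

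With the mean of these 17 markers as a covariate, none of the 5 called probe sets passed in limma, and 3 of them had an unadjusted p below 0.05. The differences were then 0.24 (SE 0.10) and 0.32 (SE 0.12) log2 units for Trem2, 0.13 (SE 0.06) for Tyrobp, 0.16 (SE 0.05) for Fcer1g and 0.17 (SE 0.09) for Cd33. Each kept its sign. Inpp5d and Ptpn6 turned negative, at -0.26 (SE 0.12) and -0.18 (SE 0.11). The covariate was itself higher in ethanol rats, so it takes up part of the difference between the groups.

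**Figure D2:**
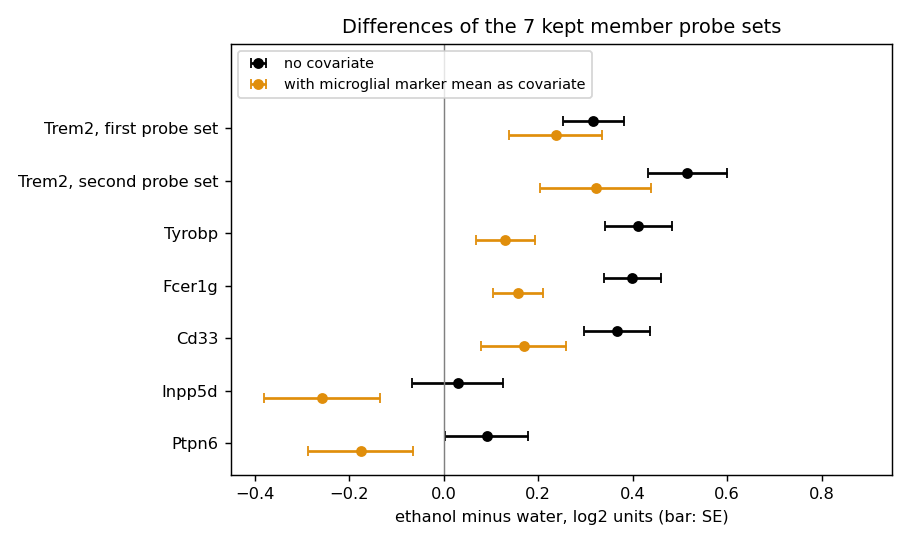
Difference between ethanol and water rats (log2 units, with SE) for the 7 fitted probe sets, without a covariate (black) and with the mean of 17 microglial markers as a covariate (orange). The 5 called probe sets move toward 0 with the covariate, Tyrobp from 0.41 to 0.13, and Inpp5d and Ptpn6 move below 0.

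Markers of other leukocytes that use the same adaptors and enzymes were mostly under the filter. None of 9 mast cell and basophil markers on the array, whose high-affinity IgE receptor contains Fcer1g, and none of 12 lymphocyte markers reached it. Fcer1a, the defining chain of that receptor, averaged 4.64 log2 units over all arrays, and Cd3e, of the T cell receptor, 5.46. Of 8 neutrophil and monocyte markers only Plac8 was fitted (log2 0.41, SE 0.17, adjusted p = 0.334 by limma), and of 9 markers of perivascular macrophages only Pf4 (0.14, SE 0.12, adjusted p = 0.669). In the limma fit with no filter, 0 of these 38 markers were called and 5 had an unadjusted p below 0.05, 4 higher (Plac8, Csf3r, Ms4a2 and Cma1) and 1 lower. The lower one was Lyve1, the hyaluronan receptor of perivascular macrophages and lymphatic vessels (log2 -0.83, SE 0.25, adjusted p = 0.226). In that fit 6 of the 9 perivascular macrophage markers had negative and 3 positive differences, with a median of -0.18 log2 units, and the mannose receptor Mrc1 was at -0.68 (SE 0.33, adjusted p = 0.512). These genes were named after their values were seen.

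The other receptors of the 2 classes were measured in part. Of 21 further receptors or adaptors on the activating side, 9 were on the array and 4 were fitted, with a median difference of 0.28 log2 units. None was called and 3 had an unadjusted p below 0.05. Csf1r, among these 3, was also counted among the microglial identity markers. The integrin chain Itgb2 was at log2 0.35 (SE 0.08, limma adjusted p = 0.0524) and the Fc receptor Fcgr3a at 0.33 (SE 0.08, adjusted p = 0.0890), and in Fcgr3a the groups did not overlap. Of 19 inhibitory receptors 14 were on the array and 5 were fitted, with a median of 0.12; none was called and 3 had an unadjusted p below 0.05. The inhibitory Fc receptor Fcgr2b had the largest difference among these 5 (log2 0.70, SE 0.18, adjusted p = 0.0866), with all 7 ethanol rats above the water mean, and the lectin Clec4a3 was at 0.35 (SE 0.10, adjusted p = 0.152).

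The lists of kinases, second messengers and negative regulators had medians close to that of the array, and which cells gave these signals was not tested. An unadjusted p below 0.05 in limma was found for 3 of the fitted kinases and adaptors, all higher. It was found for 3 of the fitted second messengers and outputs, 2 higher and 1 lower, beside 12.1% of the array. Of 14 fitted kinases and adaptors the median was 0.014 log2 units and 1 was called: Rac2, the GTPase of blood-derived and microglial cells, rose by 0.29 (SE 0.06, limma adjusted p = 0.0457). The adaptor Blnk, a substrate of Syk, was at 0.23 (SE 0.06, adjusted p = 0.0845). The Src kinases Lyn and Fgr and the kinase Btk, which act beside Syk in myeloid cells, were under the filter. Of 15 fitted genes of the calcium, diacylglycerol and NFAT arms the median was 0.011, and Prkcd, a diacylglycerol-responsive kinase, rose by 0.23 (SE 0.05, adjusted p = 0.0493), while the diacylglycerol kinase Dgka was at -0.19 (SE 0.06, adjusted p = 0.173). Leaving out 1 array at a time ended the calls of Rac2 and Prkcd in 13 of 15 cases each (adjusted p up to 0.110 for both), and neither was called without water rats 7 and 8 (adjusted p = 0.108 and 0.129). Of 9 fitted negative regulators the median was -0.014, none was called and 1 had an unadjusted p below 0.05. Inppl1 (SHIP2), the relative of Inpp5d, was at -0.20 (SE 0.06, adjusted p = 0.126) and the kinase Csk at 0.045 (SE 0.04, adjusted p = 0.688).

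Ligands and sheddases of Trem2 were not called. Of 12 fitted genes the median was -0.0094 log2 units, and 1 had an unadjusted p below 0.05. The lipoprotein Apoe, a ligand of Trem2, was at 0.12 (SE 0.05, limma adjusted p = 0.379) and Adam17, a protease that sheds Trem2, at -0.12 (SE 0.06, adjusted p = 0.415). Of 15 fitted genes listed for a microglial state of disease models, 1 rose and 1 fell, with a median of 0.15. Whether each of them depends on Trem2 was not tested. An unadjusted p below 0.05 was found for 12 of the 15, 8 with positive and 4 with negative differences, beside 12.1% of the array. The protease Ctsl fell by 0.23 log2 units (SE 0.05, adjusted p = 0.0267), with no overlap between the groups, and the metalloproteinase inhibitor Timp2 rose by 0.28 (SE 0.06, adjusted p = 0.0370). Leaving out 1 array at a time ended these calls in 6 and 11 of 15 cases (adjusted p up to 0.0652 and 0.0918), and without water rats 7 and 8 Ctsl stayed called (adjusted p = 0.0394) and Timp2 did not (0.0930). The ends of the range, named after their values were seen, were Cd74, the class II invariant chain (log2 0.92, SE 0.30, adjusted p = 0.198), and the chemokine Ccl6 (-0.74, SE 0.19, adjusted p = 0.0890). Unlike Ctsl, the lysosomal protease Ctsz, at 0.35 (adjusted p = 0.0620), and the lysosomal tetraspanin Cd63, at 0.15 (adjusted p = 0.0727), had positive differences that did not pass, and the tetraspanin Cd9 was at -0.25 (adjusted p = 0.0569) with no overlap between the groups. In Cd63 too the groups did not overlap. These genes were also named after their values were seen. Which cells of the tissue gave the signals of this list was not tested.

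Markers of the other brain cells differed as follows. Of 9 fitted oligodendrocyte markers 3 fell (limma, beside 0.542% of the array): Ugt8 (log2 -0.69, SE 0.11, adjusted p = 0.00413), Fa2h (-0.43, SE 0.08, adjusted p = 0.0210) and Cldn11 (-0.25, SE 0.05, adjusted p = 0.0369), enzymes and a junction protein of myelin. The median of the 9 was -0.19, and 7 had an unadjusted p below 0.05, 6 lower and 1 higher; the higher one was the myelin protein Opalin (0.20, SE 0.08, adjusted p = 0.327), named after its value was seen. The call of Fa2h ended without ethanol rat 7 (adjusted p = 0.0561) and that of Cldn11 in 11 of 15 such fits (adjusted p up to 0.0873). No neuron marker of 10 (median 0.12; 0 with an unadjusted p below 0.05; with Slc18a2 and Ddc at 0.21 each, adjusted p = 0.469 for both) and no astrocyte marker of 9 (median -0.047; 2 with an unadjusted p below 0.05) was called, where Fgfr3 was at -0.16 (SE 0.04, adjusted p = 0.0890) and Slc1a2 at -0.21 (SE 0.08, adjusted p = 0.314). The part of these cell types in the differences of the 8 genes was not tested. Over all 15 lists 13 of 120 fitted genes were called, 9 higher and 4 lower, beside 0.387% and 0.542% of the array. Without water rats 7 and 8, 6 were called, 5 of them among those 13.

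**Figure D3:**
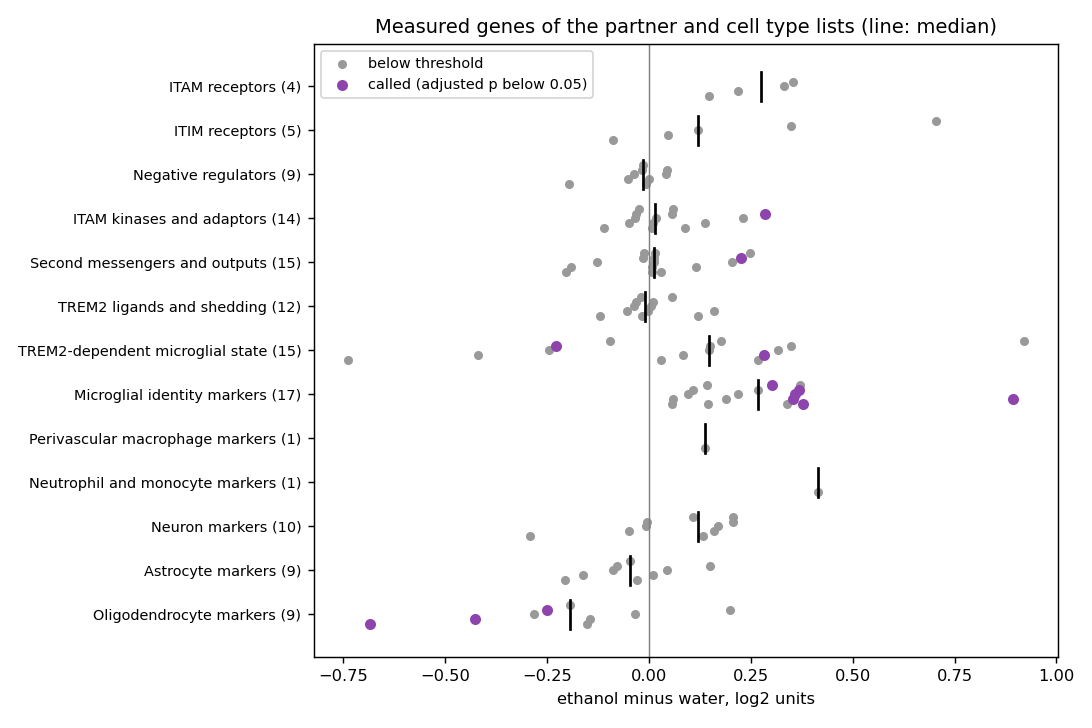
Difference between ethanol and water rats (log2 units) for each measured gene of the partner and cell type lists, with the number measured in brackets, called genes in purple, others in grey and a black line at each median. The microglial identity markers lie above 0 throughout, with Gpr34 farthest at 0.89, and 3 oligodendrocyte markers are called below 0. The label TREM2-dependent is the name of a list, and the dependence of its genes on Trem2 was not tested.

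How the genes varied from rat to rat within a group does not use the difference between the groups. Tyrobp and Fcer1g had r above 0.8 in both groups, which did not pass after adjustment. In ethanol rats Pearson's r was 0.90 (exact permutation p = 0.0054, adjusted p = 0.0746) and Spearman's rho 0.93 (exact p = 0.0067, adjusted p = 0.0893), and in water rats r was 0.84 (exact p = 0.0042, adjusted p = 0.0746) and rho 0.88 (exact p = 0.0072, adjusted p = 0.0893). Without the 2 rats farthest from the median of Tyrobp, r was 0.91 in ethanol and 0.64 in water rats, and without water rats 7 and 8 it was 0.90 in water rats. The adjustment covers all 74 correlations computed, of which 0 passed and 20 had an unadjusted exact permutation p below 0.05; the tests are two-sided and use every pairing of the 7 or 8 rats.

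Over all rats of a group, Trem2 and its adaptor gave lower values of Pearson's r than Tyrobp and Fcer1g. Between the first Trem2 probe set and Tyrobp, r was 0.66 in ethanol rats (exact permutation p = 0.0474, adjusted p = 0.181; rho 0.89, exact p = 0.0123, adjusted p = 0.114) and 0.46 in water rats (exact p = 0.251, adjusted p = 0.442; rho 0.43, exact p = 0.299, adjusted p = 0.583). Without the 2 farthest rats r was 0.96 and 0.44, the former above the 0.91 of Tyrobp and Fcer1g in ethanol rats. The difference of these correlations between the groups was not tested, and the second Trem2 probe set was not correlated with Tyrobp. The 2 Trem2 probe sets had r close to 0 in water rats, at -0.097 (exact permutation p = 0.817, adjusted p = 0.934; rho -0.095, exact p = 0.840, adjusted p = 0.922), and r was 0.57 in ethanol rats (exact p = 0.211, adjusted p = 0.410; rho 0.36, exact p = 0.444, adjusted p = 0.700). Without the 2 farthest rats these values were 0.049 and -0.26, so the ethanol value rests on those rats.

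**Figure D4:**
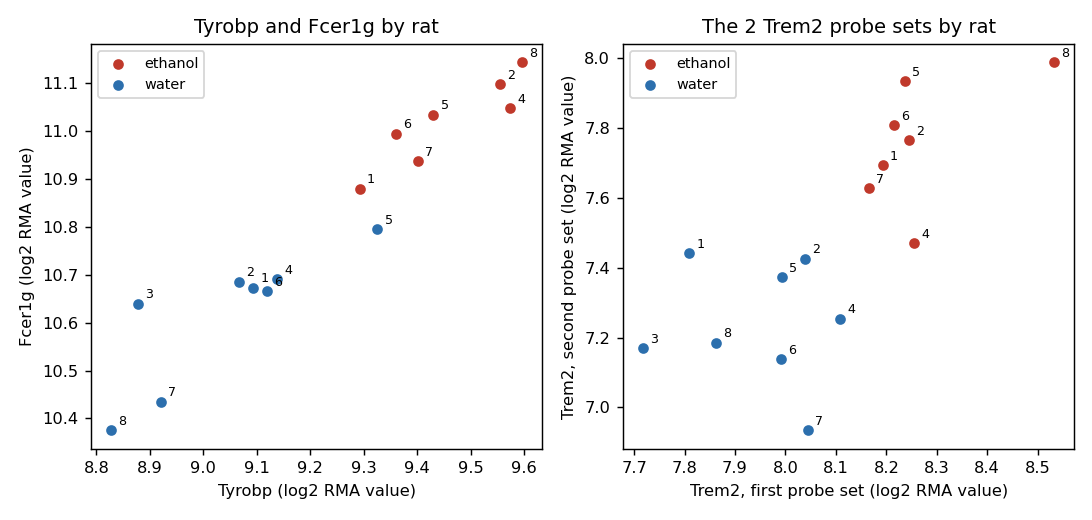
Log2 RMA values of Tyrobp against Fcer1g (left) and of the 2 Trem2 probe sets against each other (right), 1 point for each rat with its number, ethanol in red and water in blue. Tyrobp and Fcer1g lie along 1 line within each group (r = 0.90 and 0.84), and the Trem2 probe sets do not in water rats (r = -0.097).

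The highest r of Cd33 was with Ptpn6 in ethanol rats and with Tyrobp in water rats. Its r with Ptpn6 in ethanol rats was 0.97 (exact permutation p = 0.0024, adjusted p = 0.0746; rho 0.93, exact p = 0.0071, adjusted p = 0.0893), and 0.78 without the 2 farthest rats (exact p = 0.20). Ethanol rats 1, 6 and 7 had the same Ptpn6 value, 7.14 log2 units. In water rats the r of Cd33 with Tyrobp was 0.86 (exact p = 0.0061, adjusted p = 0.0746; rho 0.88, exact p = 0.0072, adjusted p = 0.0893), and 0.55 without the 2 farthest (exact p = 0.214). Without water rats 7 and 8, the r of Cd33 with Tyrobp in water rats was 0.88 (exact permutation p = 0.0292). Among the 28 pairs of the 8 genes, r was positive in 16 in ethanol rats and in 22 in water rats, with medians of 0.21 and 0.32, and 7 and 6 pairs had an unadjusted exact permutation p below 0.05.

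The adaptors were also set against the microglial marker mean. In water rats r was 0.88 for Tyrobp (exact permutation p = 0.0046, adjusted p = 0.0746; rho 0.86, exact p = 0.0107, adjusted p = 0.113; 0.71 without the 2 farthest rats) and 0.92 for Fcer1g (exact p = 0.0028, adjusted p = 0.0746; rho 0.76, exact p = 0.0368, adjusted p = 0.272; 0.77 without them). In ethanol rats the values were 0.86 for Tyrobp (exact p = 0.0137, adjusted p = 0.142; rho 0.82, exact p = 0.0341, adjusted p = 0.272; 0.94 without the 2 farthest) and 0.83 for Fcer1g (exact p = 0.0232, adjusted p = 0.142; rho 0.79, exact p = 0.0480, adjusted p = 0.273; 0.48 without them). For the first Trem2 probe set r was 0.037 in water rats (exact p = 0.930, adjusted p = 0.956; rho -0.048, exact p = 0.935, adjusted p = 0.948; 0.25 without the 2 farthest) and 0.73 in ethanol rats (exact p = 0.0369, adjusted p = 0.161; rho 0.57, exact p = 0.200, adjusted p = 0.435; 0.80 without them). The second Trem2 probe set was not correlated with the marker mean, so these Trem2 values hold for the first only. The other genes ranged widely, with r given first for water and then for ethanol rats. It was 0.67 and 0.63 for Cd33, 0.75 and 0.30 for Inpp5d, and 0.60 and 0.77 for Ptpn6. For Plcg2 it was 0.24 and -0.058, and for Syk -0.51 and -0.18. All these probe sets share 1 array and 1 normalization per rat.

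Among fitted probe sets with 1 symbol, the genes most like each of the 3 were taken by Pearson's r over the 15 arrays after subtracting each group mean. For Tyrobp they were Cln8 (r = 0.92), Cryl1 (0.92), Pon2 (0.89), Vcan (0.89) and Col9a3 (0.89), and Fcer1g ranked 18 (0.86). For Fcer1g they were Itgav (0.92), Ctdsp1 (0.92), Agmo (0.92), the lymphoid and myeloid adaptor Sash3 (0.91) and the microglial marker Ctss (0.90), and Tyrobp ranked 28. For the first Trem2 probe set they were Slc38a3 (0.90), Sbsn (0.85), Bckdha (0.84), Ptrhd1 (0.84) and Lamtor2 (0.82), and the closest of the 8 genes was Cd33, at rank 92 (0.69). Of these 15 like genes only Ctss was called between the groups (adjusted p = 0.0411 by limma).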

How the data were processed

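Gene expression was measured on Affymetrix rat arrays, and the authors deposited 1 table of log2 values for 31099 probe sets on 15 arrays, which per the submitters' processing notes come from RMA (software and version not given in the sources used). RMA equalises the arrays' distributions and compresses differences of dim probe sets. Per the labels, RNA went through 2 amplification cycles, which favour 3' sequence. Names came from GEO's platform annotation, and all 8 genes matched a RefSeq table (GRCr8) by Entrez number.

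After removal of 57 control probe sets, those with a mean at or above the 40th percentile (18625) entered a two-sided fit of ethanol against water (lmFit, then eBayes, of limma 3.58.1, under R 4.3.3), with Benjamini-Hochberg adjustment over all. A listed gene was represented by its kept probe set with the highest mean. The fit was tested on simulated data. Correlations used exact permutation in Python 3.11.15. The number of arrays limits the precision; the median SE was 0.056 log2 units. The labels name each sample as an animal.

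The genes and the 15 lists were chosen with earlier results of these data known. Text names the 8 genes, each called gene and the 2 smallest p of every list, 5 like genes each for Trem2, Tyrobp and Fcer1g, and Th. Hcst, Treml1, Fcer1a, Cd3e, Lyn, Fgr, Btk, Cd74, Ccl6, Ctsz, Cd63, Cd9, Lyve1, Csf3r, Ms4a2, Cma1, Mrc1, Opalin, Csf1r, P2ry12, Cx3cr1, Tmem119 and Itgam were named outside this rule. Alternatives were other filters, scalings, variance models and covariates, a replicate block and leaving out each array.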

Additional observations from a re-analysis of the deposited data

Results flagged for a closer look

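Of 76 groups of rats examined for the named genes, 5 had 1 rat whose gap to its nearest neighbour took up an unusually large part of the group's range; chance gives about 1 in 20. Ethanol rat 8 was highest for Trem2 (first probe set), at 8.53 with the next at 8.25 log2 units, and without it the difference was 0.27 (limma adjusted p = 0.0404). Ethanol rat 5 was lowest for Plcg2, at 5.41 with the next at 5.96. Ethanol rat 1 was lowest for Ctss, at 13.25, and for Laptm5, at 9.25. Water rat 4 was highest for Irf8, at 7.15.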

How the results depend on the processing

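All 5 called probe sets of the set kept their call in each of the 15 fits with 1 array left out (limma adjusted p up to 0.0493), and their direction under every alternative. Their number was 2 with the filter at the 60th percentile, which removes 3 of them from the fit, 0 with the microglial marker mean as covariate, and 2 with a replicate block. For the block, rats of equal number were paired (water rat 3 adds nothing), although the labels do not say that equal numbers are pairs. The r of their deviations ran from -0.41 to 0.29 and exceeded 0.1 in 4 of 7 pairs. In 1 of the 7 the ethanol rat had its highest r with the water rat of its own number. These pairs are too few to settle the question. Under the block 59 probe sets and 2 listed genes were called. Fcer1g (limma adjusted p = 0.0453) and the second Trem2 probe set (0.0443) stayed called. Tyrobp (0.0817), the first Trem2 probe set (0.138) and Cd33 (0.169) did not. Calls over the array were 313 with the microglial covariate (25 higher and 288 lower, against 72 and 101 without it), 154 without water rats 7 and 8 (40 higher and 114 lower), and 101 to 184 with 1 array left out, falling most without ethanol rats 7 (101) and 8 (102). Listed genes called were 5 with no filter, where Rac2, Prkcd, Timp2, Ctss, Cd53, Ptprc, Irf8 and Cldn11 lost their calls, 2 to 11 with 1 array left out, and 6 without water rats 7 and 8, which was added after seeing the data and left 4 of the 5 called probe sets. Inpp5d turned to -0.0030 with array weights, -0.26 with the microglial covariate, -0.032 with the first principal component as covariate, -0.056 without water rats 7 and 8, and from -0.030 (without water rat 8; -0.017 without ethanol rat 2) to 0.081 with 1 array left out, and Ptpn6 to -0.18 with the microglial covariate; the cause was not tested. Pairs correlated at an unadjusted exact permutation p below 0.05 numbered 13 of 56, and 4 without the 2 farthest rats, where fewer pairings exist. Comparing the 2 Trem2 probe sets was added after seeing the data. No detection calls were used, so how far dim probe sets exceed background is unknown.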
